A study of Mus musculus with 18 samples.

Results

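In WT mouse liver, 821 of 31647 RefSeq transcript starts (2.59%) had an ATAC-seq summit within 1000 bp in both fasted and both refed animals. They belonged to 706 of 26180 genes (2.70%) at 545 separate loci. These promoters were chosen by the presence of a summit in all 4 WT lists, so their openness and the strength of their summits in these 4 livers are a description and carry no test. Another 692 genes reached 3 of the 4 livers at a single start, 1010 reached 2, 1892 reached 1 and 21880 had no summit in any WT liver. ATAC-seq was made from single livers of 2 fasted WT, 2 refed WT and 2 refed JMJD1C-LKO C57BL/6J mice, H3K9me2 ChIP-seq from 2 fasted and 2 refed WT livers, and RNA-seq from pooled RNA in 2 refed WT and 2 refed JMJD1C-LKO libraries. JMJD1C-LKO mice carried floxed Jmjd1c alleles deleted by Cre under the albumin promoter, which acts in hepatocytes, so that the other cells of the liver kept the gene. WT mice were littermates, and all were kept on chow for 6 to 8 weeks per the labels (the methods give an older age), fasted overnight, and in the refed groups given a high-carbohydrate diet for 6 h per the labels.

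An open promoter is a stretch of DNA near a transcript start that nucleosomes leave free, so that transcription factors and RNA polymerase can bind there, and ATAC-seq finds it through a transposase that inserts into exposed DNA. Promoters of genes used by every cell are often rich in CpG and tend to stay open whatever the state of the animal. H3K9me2 is a histone mark known from silent chromatin, and JMJD1C belongs to the Jumonji family of histone demethylases reported to remove it. JMJD1C-LKO mice were made to ask what the liver loses without this enzyme after feeding.

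The deposited lists give each summit's position and a score, the −log10 of its q-value, with neither read counts nor peak widths, so the depth behind each list is unknown and scores were compared by rank within a list. WT ATAC-seq lists held 3119 to 7632 summits, while those of the JMJD1C-LKO livers held 1450 and 825. WT fasted 2 stood apart among the WT lists, with 78.0% of its summits in repeats against 18.9% to 43.0%, and only 15.3% of them near a start against 42.5% to 51.7%. In ChIP-seq, WT refed 1 held 1297 summits, 5.01% of them near a start and 73.0% in repeats, against 7690 to 13456 summits, 83.5% to 92.0% near a start and 1.04% to 1.87% in repeats in the other 3 lists. Jmjd1c mRNA, which checks the genotype, was at 22.0 and 22.8 CPM (counts scaled to a common library size) in the WT libraries and 20.04 and 20.5 in those labelled JMJD1C-LKO (log2 fold change −0.14, SE 0.084, adjusted p = 0.23 in edgeR's quasi-likelihood test), so that the knockout was not detected at the level of the whole transcript. Which exons were deleted is not given in the sources used here, and the genotype is taken from the labels throughout.

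Sequences around the 4 WT summits are shown for 8 member promoters whose values appear in the results that follow: fatty acid oxidation (Hadha), acetate use and lipogenesis (Acss2), the mevalonate pathway (Mvk), chromatin regulators (Hdac4, Arid4b), a promoter ranked near the top of every WT list (Smc3), one found in 9 of the 10 summit lists (Ppp2r1a) and one that ranked higher after refeeding (Dnajb1). Each stretch reaches 75 bases to either side of the mean summit, lies in no annotated exon of a curated transcript, and is written 5′ to 3′ on the strand of the named gene, from RefSeq's GRCm38 (mm10) genome. Capitals mark exact matches, on either strand, to 1 of 11 short motifs searched, namely the CCAAT box (CCAAT, bound by NF-Y), the GC box (GGGCGG, bound by SP and KLF factors), the ETS site (CCGGAAG), the NRF1 core (CGCATGCG), the cyclic AMP response element (TGACGTCA), the E-box (CACGTG), the YY1 site (AAGATGG), the ZNF143 core (ACTACAA), the TATA box (TATAAA), the forkhead site (TGTTTAC) and part of the HNF4 site (CAAAGTC).
Hadha (chr5:30155057-30155207, minus strand, between Hadha and Hadhb): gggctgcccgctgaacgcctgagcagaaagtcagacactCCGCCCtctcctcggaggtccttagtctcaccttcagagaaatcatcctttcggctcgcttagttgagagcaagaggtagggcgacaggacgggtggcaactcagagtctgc
Acss2 (chr2:155517811-155517961, plus strand): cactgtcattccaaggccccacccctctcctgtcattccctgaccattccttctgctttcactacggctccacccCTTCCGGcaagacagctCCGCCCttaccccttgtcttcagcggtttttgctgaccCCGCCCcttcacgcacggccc
Mvk (chr5:114444081-114444231, plus strand, towards Mmab): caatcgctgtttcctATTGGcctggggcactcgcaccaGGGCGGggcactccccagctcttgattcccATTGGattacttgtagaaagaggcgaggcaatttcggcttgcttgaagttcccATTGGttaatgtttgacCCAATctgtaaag
Hdac4 (chr1:92180381-92180531, minus strand): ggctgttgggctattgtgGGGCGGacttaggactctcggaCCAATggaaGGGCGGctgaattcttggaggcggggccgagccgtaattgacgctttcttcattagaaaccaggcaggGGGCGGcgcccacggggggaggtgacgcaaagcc
Arid4b (chr13:14063537-14063687, plus strand, between Arid4b and Ggps1): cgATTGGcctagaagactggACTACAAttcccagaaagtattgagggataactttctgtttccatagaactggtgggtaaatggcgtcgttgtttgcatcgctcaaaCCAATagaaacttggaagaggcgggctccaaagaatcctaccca
Smc3 (chr19:53600183-53600333, plus strand): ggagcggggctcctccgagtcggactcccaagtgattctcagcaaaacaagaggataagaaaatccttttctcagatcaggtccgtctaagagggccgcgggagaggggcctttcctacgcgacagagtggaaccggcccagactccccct
Ppp2r1a (chr17:20945197-20945347, plus strand): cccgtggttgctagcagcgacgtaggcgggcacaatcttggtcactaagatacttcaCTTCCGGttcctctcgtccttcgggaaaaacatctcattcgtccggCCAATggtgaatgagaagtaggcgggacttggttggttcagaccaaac
Dnajb1 (chr8:83607945-83608095, plus strand): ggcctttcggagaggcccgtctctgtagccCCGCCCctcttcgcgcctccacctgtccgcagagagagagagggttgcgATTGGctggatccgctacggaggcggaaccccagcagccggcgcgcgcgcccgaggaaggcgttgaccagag
The Mvk stretch held 4 CCAAT boxes and 1 GC box, that of Hdac4 held 3 GC boxes and 1 CCAAT box, and that of Acss2 held 2 GC boxes and an ETS site. None of the letters searched occurred in the Smc3 stretch.

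Some motifs were frequent over all member promoters. From 250 bases before to 50 after the start, a GC box occurred in 68.7% of the 821 member starts, 69.7% of the 4180 starts with a summit in 1 to 3 WT livers and 43.2% of all 31647 starts. The CCAAT box was found in 50.7%, 44.7% and 37.3% of the same 3 sets, and the ETS site in 17.1%, 20.4% and 10.4%. TATA boxes were rarer at member starts, at 4.75% against 5.43% and 12.3%. The E-box, the site of the USF family, was in 8.65% of member starts against 10.3% and 7.68%, and the forkhead and HNF4 letters were in 2.68% and 3.29% against 3.09% and 4.03% of all starts. Median GC content was 61.3% at member starts, 62.3% at starts open in 1 to 3 livers and 55.7% over all, and the ratio of observed to expected CpG was 0.825, 0.823 and 0.514. The ZNF143 core was in 3.65% of member starts, 5.93% of starts open in 1 to 3 livers and 3.39% of all, the NRF1 core in 3.65%, 4.28% and 2.16%, the cyclic AMP response element in 3.41%, 4.19% and 2.21%, and the YY1 site in 6.82%, 7.61% and 6.24%. These shares are a description without a test.

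Members were mostly protein-coding genes (640 of 706, or 90.7%, against 80.2% of all genes). The others were 55 lncRNA genes (7.79% against 12.7%), 6 transcribed pseudogenes, 4 miRNA genes and 1 rRNA gene. Chromosome X held 3 members (0.425%, against 4.30% of all genes). Many members stood head to head with a gene on the opposite strand: 39.2% of member starts had a divergent start within 1000 bp upstream, against 29.0% of starts open in 1 to 3 WT livers, 7.33% of those open in none and 11% of all starts. For the 281 genes concerned, the median distance between both starts was 283 bp and 280 partners were themselves members, so that both genes of such a pair share their summits. In all, 319 member genes lay at the 158 loci that held 2 or more of them, and these genes are not independent of one another.

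The summits of the 4 WT livers fell at nearly the same place. Their spread had a median of 121 bp, and at 575 of 821 starts (70.0%) all 4 lay within 200 bp of one another. At Hdac4 (chromosome 1, start at 92180341), a class II histone deacetylase, they lay 113 to 116 bp upstream of the start, a spread of 3 bp. Brd9 (chromosome 13, 73937828), a bromodomain subunit of a SWI/SNF complex, had its summits 94 to 104 bp downstream, and the start of its divergent partner Trip13 was 61 bp away. The widest spread at a start was 708 bp. Among wide ones, the summits at Dipk2a spread over 629 bp and those at Eloc, which encodes elongin C, over 514 bp, the latter with fasted 1 and refed 1 upstream of the start and fasted 2 and refed 2 downstream of it. Near the 1000 bp limit, the farthest of the 4 nearest summits lay 968 bp from a start of Sh2b3, 998 bp from Fbrs and 999 bp from Ppm1b, which were members. Just outside, it lay 1029 bp from a start of Jund, 1049 bp from C030034I22Rik and 1060 bp from Iscu.

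Ranks are given as percent of a list, where 0 is the strongest summit. Over the 821 member starts, median ranks were 19.7% and 13.0% for the fasted pair of livers and 16.7% and 23.0% for the refed pair. The list of WT fasted 2 is the longest, so that the same rank is a smaller percent there. Spearman's rho between livers over the 545 loci was 0.49 for the fasted pair and 0.48 for the refed pair, and 0.29, 0.34, 0.41 and 0.50 for the pairs of unlike feeding state; the points of a liver share library and depth, and many scores are tied. Of the unlike pairs, 3 lay below both like pairs, and fasted 2 with refed 2 did not.

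**Figure D1:**
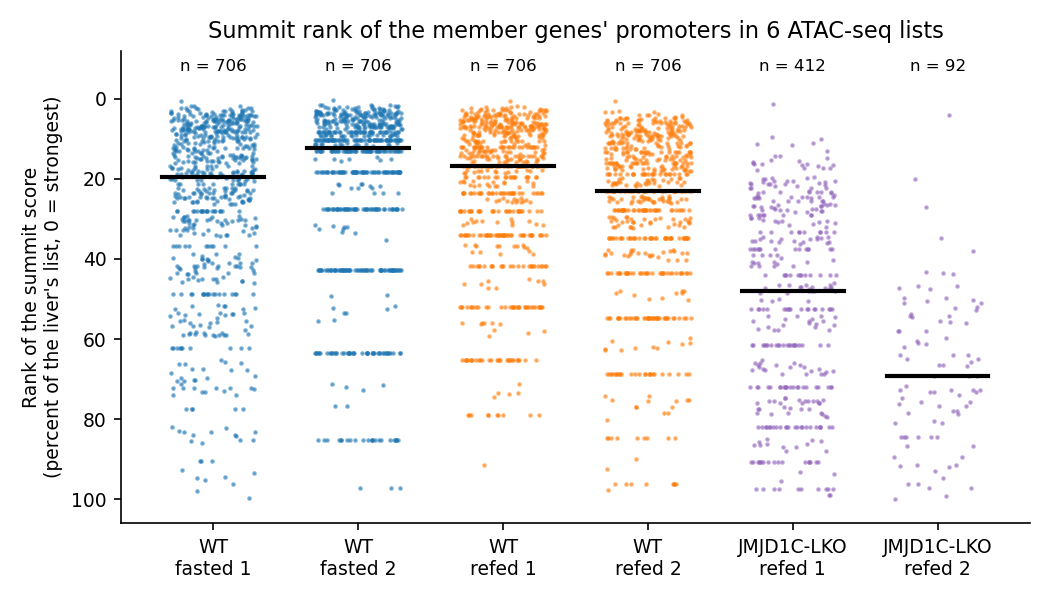
Rank of the strongest summit at the promoter of each member gene in 6 ATAC-seq lists, in percent of the list (y axis, 0 at the top is the strongest); each point is a gene, black bars are medians, and rows of points at the same height are tied scores. Points of the WT livers crowd near the top, with medians of 12.4% to 23.0%, whereas the 412 and 92 genes found in the JMJD1C-LKO livers had medians of 48.0% and 69.3%. Those lists are shorter, and by rank the medians over member starts were 714 and 595 there, against 716 to 1026 in the WT livers.

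The order by mean rank over the 4 WT livers was led, apart from summits on repeated sequence, by Lrpprc, Zfp317 and Tardbp. Lrpprc (chromosome 17, 84790786), which encodes a stabilizer of mitochondrial mRNAs, ranked at 4.24% and 3.28% after fasting and 3.21% and 3.08% after refeeding. Tardbp, the gene of the RNA-binding protein TDP-43, ranked at 4.89%, 1.44%, 4.04% and 4.91%. Smc3, of the cohesin ring, ranked at 3.37% and 5.56% fasted and 2.33% and 5.58% refed. All 3 lay within the strongest 6% of each list. Both refed livers ranked above both fasted livers for Lrpprc, and the states overlapped for Tardbp and Smc3. Zfp317 (1.80% to 5.35%), Pik3r3, a regulatory subunit of phosphoinositide 3-kinase (2.92% to 5.58%), Gm2a, a lysosomal activator protein (3.92% to 4.63%), and Gm6787 (2.92% to 6.30%) followed. The remaining 3 of the first 10 need caution: Gm20594, at 0.262% to 0.449%, lay on sequence shared with mitochondrial DNA, and the summits at Mir101c and Tas2r134 fell in repeats in all 4 livers. Asmt, Fxyd1 and Tspy-ps were the other members with repeats under all 4 summits, and 11 genes had them in at least 1 liver.

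Genes of 24 lists were looked up, from housekeeping machinery to liver metabolism, and 96 members fell in at least 1 of them. The share of members was 15.4% of fatty acid oxidation genes (4 of 26), 12.5% of unfolded protein and stress genes (4 of 32), 9.76% of chromatin regulators (12 genes), 9.52% of clock genes (2 of 21), 8.70% of cholesterol synthesis genes (2 of 23), 8.33% of vesicle transport genes (15 of 180), 8.05% of cell cycle and replication genes (7 of 87), 7.89% of tRNA synthetases (3 of 38), 7.14% of respiratory chain genes (7 of 98) and 6.67% of splicing factors (7 of 105), beside 2.70% of all genes. It was 5.63% for translation factors, 4.70% for ubiquitin enzymes, 3.74% for Zfp genes, 3.57% for lipogenesis, 3.45% for cytosolic ribosomal proteins, 3.33% for hepatocyte transcription factors, 2.56% for mitochondrial ribosomal proteins and 2.08% for proteasome subunits. The 6 lists without a member were gluconeogenesis (17 genes), glycolysis and glucose use (18), plasma proteins (26), cytochrome P450 families (58), immediate early genes (23) and autophagy (27). Plasma protein and P450 genes include the most abundant liver mRNAs, yet 3 and 1 of them had a summit in any WT liver, against 11 of the immediate early and 13 of the autophagy genes.

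In fatty acid oxidation, Hadha and Hadhb encode both subunits of the mitochondrial trifunctional protein from divergent starts 273 bp apart on chromosome 5 (30154980 and 30155253), with shared summits that ranked at 52.5% and 10.2% after fasting and 14.3% and 9.39% after refeeding. Acadm, medium-chain acyl-CoA dehydrogenase, ranked at 53.6%, 10.2%, 7.22% and 13.8%. Etfdh, which passes electrons from these dehydrogenases to the respiratory chain, was weaker, at 72.2%, 63.5%, 28.0% and 68.8%. At the trifunctional protein locus and Acadm, fasted 1 stood below the other 3 livers. Acss2, cytosolic acetyl-CoA synthetase and the only member among 28 lipogenesis genes, ranked at 77.4% and 27.6% fasted and 65.3% and 10.7% refed, so that both states overlapped. In cholesterol synthesis, Idi1, isopentenyl diphosphate isomerase, ranked higher after fasting (14.1% and 5.56%) than after refeeding (41.8% and 24.96%), and Mvk, mevalonate kinase, at 36.8%, 27.6%, 14.3% and 34.9% overlapped. Dbp (33.5%, 42.7%, 21.9%, 54.8%) and Nr1d2, the gene of REV-ERBβ (12.2%, 10.2%, 4.29%, 19.97%), were the 2 clock members, and Esrra, a nuclear receptor of mitochondrial genes, the only member among 30 hepatocyte transcription factors (54.9%, 8.20%, 28.0%, 12.6%).

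The 12 members in the list of chromatin regulators were Arid4a and Arid4b of the SIN3A complex, Brd9, the deacetylases Hdac2 and Hdac4, the remodellers Ino80 and Smarca5, the demethylases Kdm1b, Kdm4a and Kdm4d, the H4K20 methyltransferase Kmt5c, and Setd3. Setd3 was counted because the list holds it, and its role in chromatin was not examined. Highest by mean rank were Hdac2 (7.78%, 7.61%, 3.78% and 15.2%) and Hdac4 (18.4%, 4.15%, 8.58% and 11.7%). Kdm4d, whose product removes methyl groups from H3K9, shared its summits with Cwc15, a spliceosome gene with a start 137 bp away, and ranked at 90.5% and 85.1% after fasting and 28.0% and 34.9% after refeeding. Of the 4 stress genes, Dnajb1, an HSP40 co-chaperone of HSP70, moved the same way (94.4% and 85.1% fasted, 16.8% and 27.7% refed), and so did Eif2ak3, the kinase PERK (19.1% and 13.0% fasted, 5.21% and 5.72% refed).

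The rule asks for a summit in both feeding states and leaves its strength free. At 131 of 545 loci both fasted livers ranked above both refed livers in percent of list, and at 72 both refed livers ranked above both fasted. Ranked instead among the members themselves, which removes the effect of list length, the counts were 101 and 110. With 2 livers against 2, the smallest two-sided p of an exact permutation test is 0.3333, so no single locus can pass that test. Without ties, 0.3333 is also the share of loci, both directions together, that would part the states if ranks ignored feeding. The counts and the loci named next are a description, and do not mark a locus as dependent on feeding. By the widest gaps, refed ranks were the higher for Camsap1, a microtubule minus-end protein (77.4% and 85.1% fasted, 6.71% and 11.1% refed), Dnajb1, Rnf5, a ubiquitin ligase of the endoplasmic reticulum (93.5% and 42.7%, then 5.49% and 10.6%), and the Cwc15 and Kdm4d pair. Fasted ranks were the higher for Eloc and the lncRNA D030040B21Rik on its other side (12.1% and 11.2% fasted, 65.3% and 75.6% refed), Gm14327 (20.3% and 7.39%, then 79.1% and 54.8%), Pyurf (26.3% and 27.6%, then 59.2% and 97.8%) and Ccnc, cyclin C of the Mediator kinase module (48.7% and 27.6%, then 79.1% and 84.8%).

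The livers labelled JMJD1C-LKO took no part in the choice, and a share of these promoters had a summit there. In liver 1, 412 of 706 member genes (58.4%) had one, against 4.06% of all genes, and in liver 2 it was 92 (13.0%), against 0.886%. Both livers had a summit at 61 genes (8.64%, against 0.397%), either at 443 (62.7%, against 4.55%), and neither at 263. The share climbed with the number of WT livers in which a gene was open. For liver 1 it was 0.274% of genes open in no WT liver, 8.09% in 1, 20.3% in 2, 33.5% in 3 and 58.4% in 4, and for liver 2 it was 0.128%, 1.59%, 3.47%, 6.79% and 13.0%. Sorted by mean rank in the refed WT livers into 4 sets of 176 or 177 genes, members in liver 1 fell from 74.6% in the strongest set to 62.7%, 52.3% and 43.8%, while in liver 2 they stayed at 15.3%, 10.7%, 10.2% and 15.9%.

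**Figure D2:**
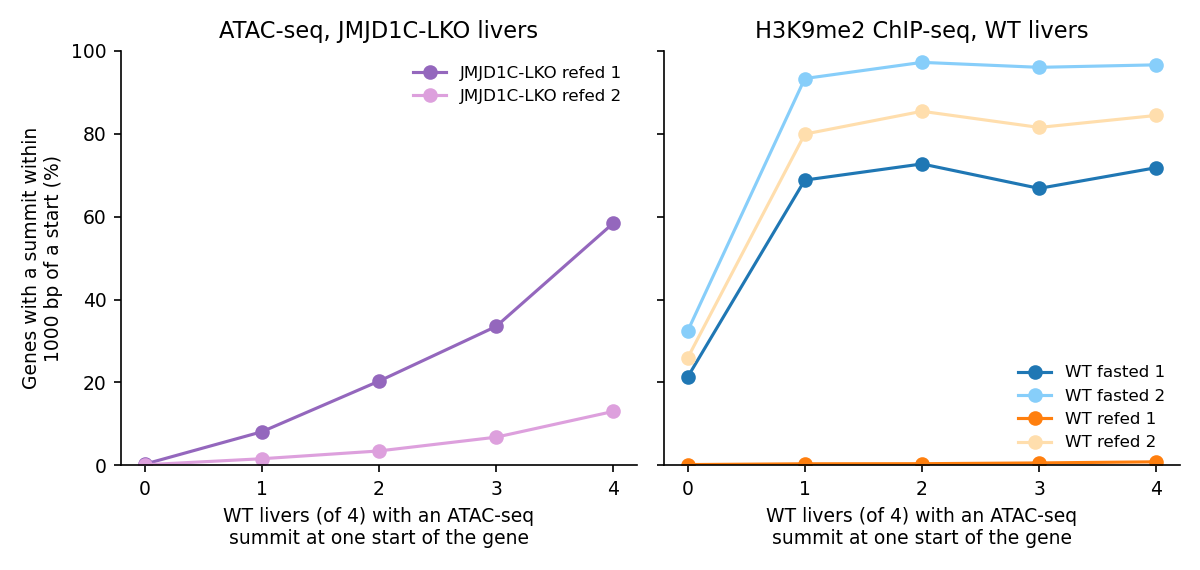
Percent of genes (y axis) with a summit within 1000 bp of a start in the JMJD1C-LKO livers (left, ATAC-seq) and in the WT H3K9me2 ChIP-seq livers (right), by the number of WT livers in which a start of the gene had an ATAC-seq summit (x axis). JMJD1C-LKO liver 1 climbs to 58.4% and liver 2 to 13.0%, whereas the H3K9me2 lists other than WT refed 1 rise once between 0 and 1 WT liver and stay level.

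Because the lists labelled JMJD1C-LKO were short, each was set beside a WT refed liver cut to the same number of strongest summits, over the genes open in the other 3 WT livers only. Of the 766 genes open without regard to WT refed 1, the 1450 strongest summits of that liver covered 65.1% and JMJD1C-LKO liver 1 covered 55.1%. Without regard to WT refed 2 (947 genes), the values were 61.8% and 52.0%. With 825 summits each, WT refed 1 and WT refed 2 covered 45.7% and 43.8% of these genes, and JMJD1C-LKO liver 2 covered 12.5% and 11.6%. At equal length, liver 1 lay below the WT refed livers by 10.1 and 9.82 percentage points and liver 2 by 33.2 and 32.2. This comparison was added after the data had been seen, and 2 livers against 2 cannot pass an exact permutation test. Summits of liver 2 lay near a start in 22.7% of cases, against 55.4% and 53.9% in the WT refed lists of the same length, and those of liver 1 in 59.7%, against 62.8% and 58.6%. In repeats lay 48.4% of the summits of liver 2 and 18.6% of those of liver 1, against 41.4% and 43.0% in the whole WT refed lists. The part of these shares in the difference was not tested.

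**Figure D3:**
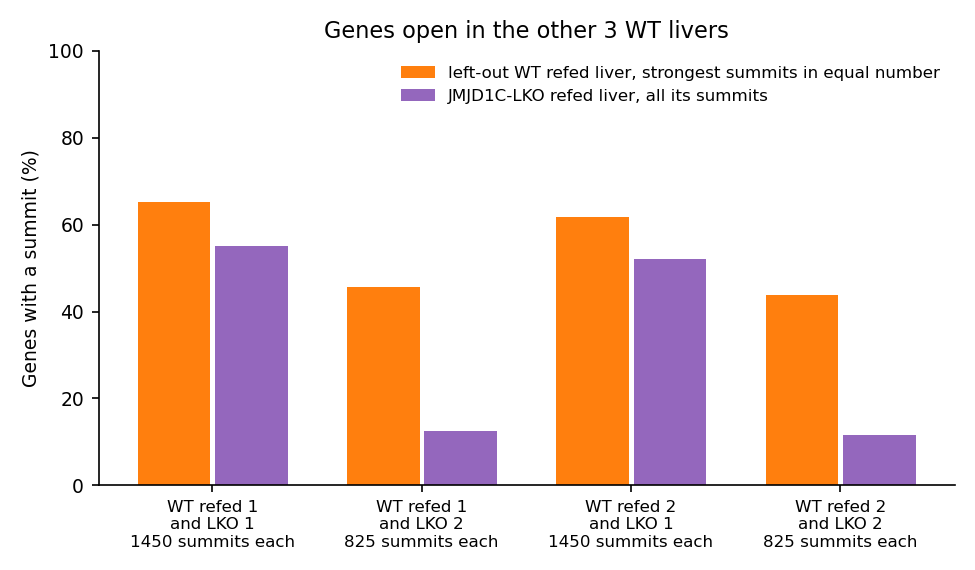
Percent of genes (y axis, from 0) with a summit in a WT refed liver cut to its strongest summits (orange) and in a JMJD1C-LKO refed liver (purple), for genes open in the 3 WT livers other than the orange one; each pair of bars uses equal numbers of summits, named under it. Orange bars reach 65.1%, 45.7%, 61.8% and 43.8% and purple bars 55.1%, 12.5%, 52.0% and 11.6%, with 1 liver per bar and so no error bar.

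No member had a summit in all 10 lists of both assays, and 41 had one in 9, each time missing ChIP-seq WT refed 1. Lrpprc led these by mean rank, at 31.2% and 52.1% of the JMJD1C-LKO lists. Cep43, a centrosome gene (14.9% and 52.8%), Ppp2r1a, the scaffold subunit of protein phosphatase 2A (48.0% and 92.1%), Srp54c of the signal recognition particle (48.0% and 76.1%), Zfpm1, a GATA cofactor (31.1% and 61.1%), and Gm5165 (29.9% and 50.5%) came next. Pdcd10 and its divergent neighbour Serpini1 (35.4% and 86.8%), Slc35f5 (21.3% and 100%) and Dnpep, an aminopeptidase (27.0% and 78.7%), completed the first 10. Percents are larger in the shorter list of liver 2, and by rank Lrpprc (452.5 in liver 1 and 429.5 in liver 2), Srp54c (696.5 and 628) and Gm5165 (433.5 and 417) stood higher in liver 2. Among the metabolic members, Acadm, Etfdh, Acss2, Idi1, Mvk and Nr1d2 had a summit in liver 1 and none in liver 2, and Hadha, Hadhb, Dbp and Esrra had none in either. Of the 12 chromatin regulators, 9 had one in liver 1, and Arid4b alone had one in both.

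H3K9me2 summits lay at most of these open promoters. In the fasted livers 507 (71.8%) and 682 (96.6%) of the 706 genes had one within 1000 bp of a start, against 29.3% and 42.7% of all genes, and 506 (71.7%, against 29.1%) had one in both. Many of these summits lay downstream of the start. With a window of 1000 bp upstream to 100 bp downstream for both assays, 588 genes were members. Of those, 150 (25.5%) had an H3K9me2 summit in both fasted livers. The share of all genes was not counted for that window, and 29.1% is no background for it. In WT refed 2, with 1000 bp on either side, 596 of the 706 genes had one (84.4%, against 35.1%). WT refed 1, the list that stood apart, had 6 (0.850%, against 0.233%), namely Gm13275, Gm13278, Gm13279, Gm13290, Gm20594 and Rn4.5s, so that no member had a summit in both refed lists (0 of 706, against 0.042% of all genes). Fasted 1, fasted 2 and refed 2 all had a summit at 494 members (70.0%, against 28.1%), and 18 members had none in any list. Promoters open in fewer livers had like shares. With 1, 2, 3 and 4 WT livers they were 93.3%, 97.2%, 96.0% and 96.6% in fasted 2, 79.9%, 85.4%, 81.5% and 84.4% in refed 2, and 68.8%, 72.7%, 66.8% and 71.8% in fasted 1, and genes open in none had 32.4%, 25.9% and 21.3%.

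H3K9me2 was also set against expression, which was measured in refed livers only, so that only ChIP-seq refed 2 matches it in feeding state among the lists used. Among genes below 1 TPM (a level per transcript length and library) in the mean of both WT libraries, 97.4% of 76 members and 21.3% of 4320 other genes had a summit in fasted 2. From 1 to 10 TPM the shares were 98.0% of 252 members and 76.6% of 5072 others, from 10 to 50 TPM 99.6% of 223 and 94.7% of 3554, and from 50 TPM 97.0% of 99 and 94.9% of 1891. In fasted 1 the members themselves climbed, from 43.4% below 1 TPM to 69.8%, 81.6% and 88.9%, and the other genes from 7.22% to 45.5%, 74.9% and 82.8%. In refed 2, members went from 63.2% to 84.1%, 94.6% and 92.9%, and the other genes from 10.9% to 58.9%, 85.8% and 89.9%. Members and other genes thus differed most where little mRNA was measured. In fasted 2 members stayed at 97.0% to 99.6% at every level, and it was the other genes that climbed. A summit near a member with little mRNA can also lie near the start of a neighbouring gene, since 319 of the 706 members shared a locus with another member. The part of such neighbours was not tested.

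ATAC-seq and H3K9me2 summits took different places at the same promoters. ATAC-seq summits of the WT livers had medians of 153 to 161 bp upstream of the start. H3K9me2 summits had medians of 236 bp downstream in fasted 1, 208 bp in fasted 2 and 242 bp in refed 2, with the 25th percentile 117, 213 and 186 bp upstream. Their median distance from the mean ATAC-seq summit was 445, 421 and 462 bp. Summits of the JMJD1C-LKO livers had medians on the upstream side too, at −164 and −104 bp. The 25th and 75th percentiles were −253 and −22 bp in liver 1, and −290 and 71 bp in liver 2, where part of the summits lay downstream.

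**Figure D4:**
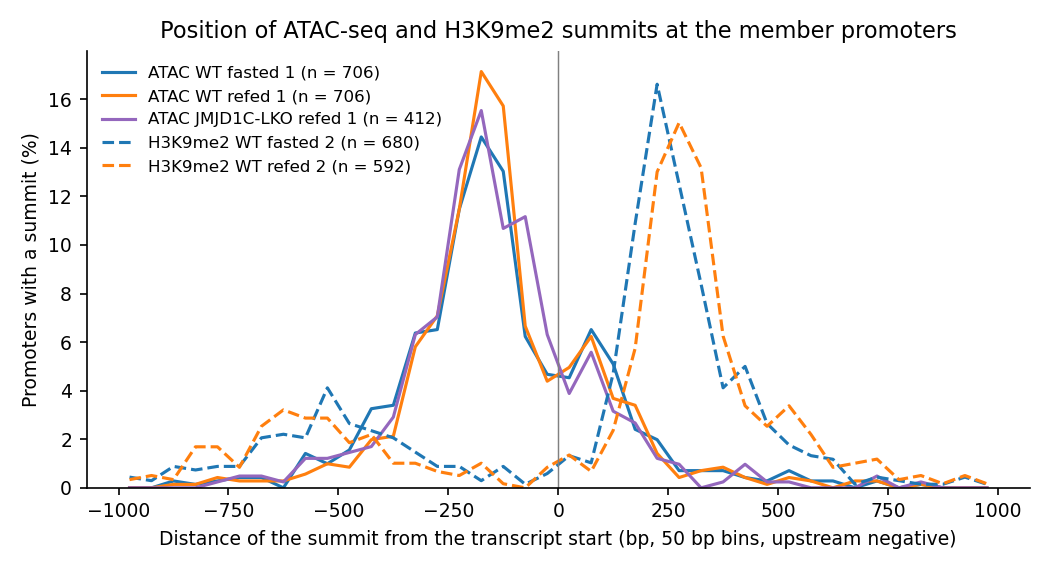
Distance of the summit from the transcript start (x axis, bp, upstream negative) for 1 start per member gene, as percent of the promoters with a summit in 50 bp bins (y axis), for ATAC-seq (solid) and H3K9me2 (dashed) lists. ATAC-seq lines peak upstream of the start, with gene medians between −161 and −150 bp in the 3 lists drawn, and H3K9me2 lines peak downstream (medians 213 and 252 bp) with a lower shoulder upstream.

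Tardbp, of the leading promoters, had H3K9me2 summits at rank 509 of 7690 in fasted 1, 56 of 13456 in fasted 2 and 75 of 9929 in refed 2. Other members stood higher in single lists, such as 2210406O10Rik at rank 19 in fasted 1, Bclaf1 at 13 in fasted 2 and Cd164 at 56 in refed 2. Hadha, Hadhb, Acadm, Etfdh, Acss2, Idi1, Nr1d2 and Esrra had an H3K9me2 summit in both fasted livers and refed 2, and Mvk and Dbp in fasted 2 and refed 2. Of the 12 chromatin regulators, 11 had one in both fasted livers and all 12 in refed 2. Gm2a, of the 10 leading promoters, had one in fasted 2 alone, and Mir101c and Tas2r134 had none.

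RNA was measured in refed livers only, from 51265128 to 54400509 estimated counts per library. Of the 706 genes, 650 (92.1%, against 59.2% of all genes) had a TPM. Their median was 9.58 and 10.3 TPM in the WT libraries and 9.10 and 9.37 in those labelled JMJD1C-LKO, against 4.89, 4.98, 4.78 and 5.14 over all 15487 genes with a TPM. Genes open in 1, 2 or 3 WT livers were much like members, and 92.5%, 94.3% and 92.8% of them had a TPM. Medians of these genes were 9.72, 8.05 and 9.03 TPM in WT library 1 and 10.1, 8.2 and 9.69 in WT library 2. At least 10 TPM in both WT libraries were reached by 317 members, and 70 stayed below 1. The highest were the predicted gene Gm20594 (1180 and 986 TPM, shared with mitochondrial sequence), Ndufa4 of the respiratory chain (1030 and 1030), Atp5b, the beta subunit of ATP synthase (932 and 1060), Reep6 (867 and 898) and the ribosomal protein gene Rps23 (834 and 828). Gpr137c, Prr11, Ccdc146, A230056J06Rik and Stk32c lay lowest, each at most 0.0833 TPM in either WT library. Of these 5, 4 had a divergent partner (Txndc16, Ska2, Fam185a and Naa35), and rank and level did not go together for Atp5b, whose summits ranked at 81.9%, 42.7%, 65.3% and 7.31%.

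Of 641 members tested against the libraries labelled JMJD1C-LKO, 59 were higher there (9.20%, against 14.6% of all 14162 genes tested) and 111 lower (17.3%, against 13.3%). The median log2 fold change was −0.08 for members and 0.01 for all genes. Genes open in 1, 2 or 3 WT livers were higher in 180 of 1715, 79 of 936 and 63 of 629 cases and lower in 15.7%, 18.3% and 14.9%, and genes open in none in 16.4% and 12.2%, so that the shares of members were near those of other open genes. The calls changed with the libraries used: without WT library 1 they were 13 higher and 29 lower (2.02% and 4.50%, against 5.55% and 3.41% of all genes), without WT library 2, 12 and 23 (1.86% and 3.57%, against 4.61% and 2.81%), and without JMJD1C-LKO library 2, 37 and 78 (5.75% and 12.1%, against 10.7% and 9.67%). Without JMJD1C-LKO library 1 they were 74 and 156 (11.5% and 24.1%, against 17.6% and 17.5%). Markers of Kupffer and endothelial cells moved with genotype. Summed over 8 Kupffer cell markers, the WT libraries had 236 and 248 TPM and those labelled JMJD1C-LKO 439 and 666 (8 of 8 higher). Over 6 endothelial markers, the sums were 61.3 and 63.8 against 79.3 and 110 (5 of 6 higher). Over hepatocyte markers, 7 of 8 with counts, they were 110000 and 109000 against 107000 and 101000 (2 higher, 0 lower). Higher markers of other types were 2 of 6 stellate, 1 of 6 T and B cell and 1 of 4 erythroid. Of the pancreas markers, 1 of 2 with counts was higher, and 0 of 5 cholangiocyte markers were. None of these other markers was lower. No gene of these marker lists was a member, and the part of cell makeup in the calls was not tested. A change in the number of cells of a type and a change in RNA per cell cannot be told apart in such bulk samples.

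**Figure D5:**
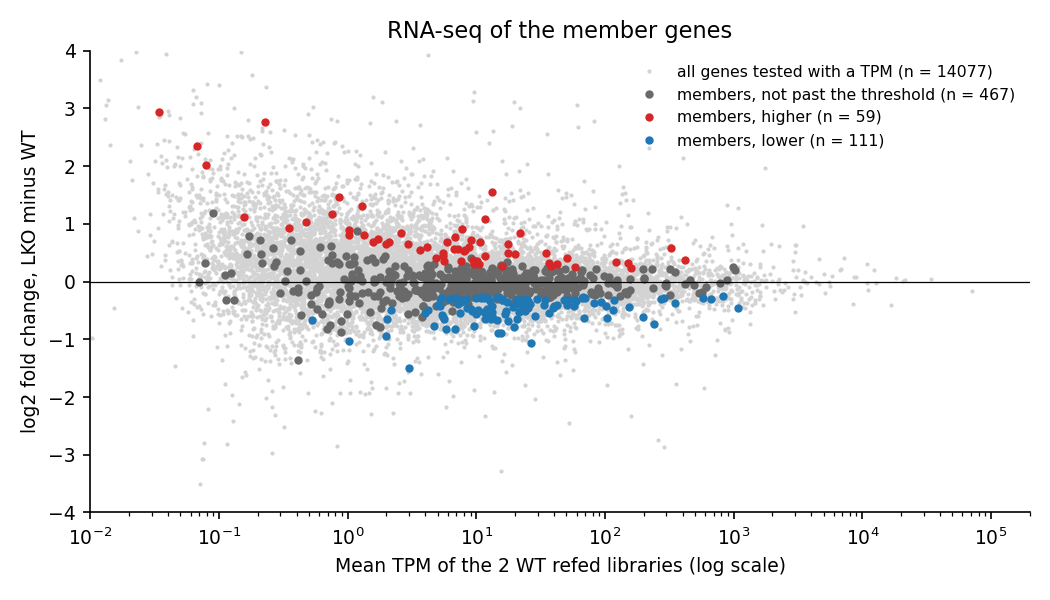
log2 fold change of refed JMJD1C-LKO against refed WT libraries (y axis) by mean WT level (x axis, TPM, log scale) for 14077 genes tested with a TPM (grey) and the 637 members among them, of which 59 were higher (red) and 111 lower (blue). Lower members lie mostly above 1 TPM, the higher members with the widest changes lie at the low end, and genes beyond the drawn range are left out.

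The most clearly higher member was Noct, the gene of nocturnin, an NADP(H) phosphatase of circadian rhythm, at 13.3 and 13.1 TPM in WT and 32.2 and 44.1 in the libraries labelled JMJD1C-LKO (log2 fold change 1.56, SE 0.121, adjusted p = 6.04e-05). Ppm1k, the phosphatase that activates branched-chain keto acid breakdown, stood at 12.6 and 10.9 against 22.1 and 27.1 TPM (1.09, SE 0.107, adjusted p = 0.000201). Fbxo31 (log2 fold change 0.84), Ell2, an elongation factor (0.64), Hpcal1 (0.92) and Por, the electron donor of the cytochromes P450 (0.59), came next, each with adjusted p of at most 0.00182. In all 6 genes both libraries labelled JMJD1C-LKO lay above both WT libraries. Noct, Fbxo31 and Ell2 had no summit in the JMJD1C-LKO livers, and Ppm1k, Hpcal1 and Por had one in liver 1.

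Among the lower members, Mphosph10, a U3 snoRNP protein of ribosomal RNA processing, was at 26.4 and 27.3 TPM in WT and 13.9 and 11.3 in the libraries labelled JMJD1C-LKO (log2 fold change −1.06, SE 0.117, adjusted p = 0.000342). Tubb4b, a beta-tubulin, was at 240.3 and 236.9 against 146.5 and 134.2 TPM (−0.74, adjusted p = 0.00054). Dipk2a followed at −0.89, Riok2, a kinase of small ribosomal subunit assembly, at −0.79 and Tle4, a Groucho corepressor, at −0.82 (adjusted p at most 0.000675). Groups did not overlap for any of these 5 genes. Mphosph10, Dipk2a and Riok2 had a summit in JMJD1C-LKO liver 1 alone, Tle4 had one in both livers and Tubb4b in neither. Over all members, 19.5% of those with no summit in either liver and 16.2% of those with one in liver 1 alone were lower. So were 2 of 27 with one in liver 2 alone and 10 of 50 with one in both, against 13.3% of all genes tested. Higher, in the same order, were 8.47%, 8.84%, 4 of 27 and 6 of 50, against 14.6% of all genes tested.

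Among the lists, Acss2 (34.4 and 38.4 against 44.4 and 44.5 TPM, log2 fold change 0.32), Etfdh (156 and 162 against 182 and 184, 0.23) and Mvk (5.93 and 5.06 against 8.24 and 7.02, 0.50) were higher in the libraries labelled JMJD1C-LKO, with adjusted p of 0.018, 0.0479 and 0.0479. Idi1 (10.7 and 12.2 against 8.56 and 6.92, −0.53) and Dbp (158 and 151 against 123.5 and 99.2, −0.44) were lower, with adjusted p of 0.0144 and 0.0203. Acadm, Hadha, Hadhb, Nr1d2 and Esrra did not pass (−0.04, −0.08, 0.05, −0.17 and 0.20). Of the 11 chromatin regulators tested, 4 were lower and none higher: Hdac2 (22.7 and 18.4 against 13.3 and 12.4 TPM, −0.65, adjusted p = 0.00464), Ino80 (−0.42), Smarca5 (−0.30) and Arid4b (−0.27), beside 19 lower and 4 higher of 120 tested in the whole list. Members of other lists that were lower included 6 of 15 Zfp genes, 3 of 3 cytosolic ribosomal proteins and 2 of 3 tRNA synthetases, where 47 of 349, 54 of 84 and 17 of 38 of the whole lists were lower. In other lists the members' share was the smaller, with 1 of 7 splicing factors (41 of 101 in the whole list), 0 of 4 translation factors (19 of 66), 0 of 7 cell cycle and replication genes (12 of 77), 0 of 4 stress genes (15 of 32) and 0 of 2 mitochondrial ribosomal proteins (14 of 78) lower. The leading promoters Lrpprc (−0.33), Tardbp (−0.42), Smc3 (−0.43) and Zfp317 (−0.41) were lower as well, and Gm2a (0.42) was higher.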

How the data were processed

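ATAC-seq, H3K9me2 ChIP-seq and RNA-seq of mouse liver were analysed from deposited tables. The authors called ATAC-seq and ChIP-seq peaks per sample with MACS2 (2.1.1 per the labels) on mm10 at a q-value cutoff, and deposited each summit with a score, the −log10 of its q-value. The deposited RNA-seq table holds expected counts per RefSeq transcript, made by the authors in Partek from reads aligned with HISAT2 per the labels, and a table of their own fold changes and p-values was not used.

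Conditions were read from sample titles and genotypes, F as fasted and R as refed, since the labels describe 1 treatment for all samples and the methods give a longer refeeding. The input samples hold no values used here. Members, gene lists and motifs were chosen with earlier results of these data known.

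Curated transcript starts (RefSeq GRCm38.p6, the mm10 assembly) were members where the strongest summit within 1000 bp existed in all 4 WT lists; genes took the start nearest the mean summit. Ties took average ranks. A summit with over 50% masked bases within 100 bp counted as repeat, and 1 sharing a run of 25 bases with mitochondrial DNA as mitochondrial. Counts of a gene's transcripts were added up and then rounded, and TPM used annotated lengths (24682 of 24994 transcripts found). edgeR 4.0.16 (TMM, filterByExpr, quasi-likelihood F test, Benjamini-Hochberg adjusted p under 0.05, SE from the fold change and F) tested 14162 genes, and the test was checked on simulated data. DESeq2 1.42.0 was an alternative. The 2 libraries per group come from pooled RNA, so p-values measure the spread between these libraries. Summit lists give no depth, and their precision is limited by the number of livers. Named genes were members of the lipid, glucose, clock, hepatocyte factor and chromatin lists, the 10 highest mean ranks, the 6 smallest p in each direction (1 lower gene is not reported here), up to 10 genes in the most lists, the 5 highest and lowest levels, up to 5 with the widest gap between feeding states each way, and 3 on either side of the 1000 bp limit. Other genes named were chosen after their values were seen.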

Additional observations from a re-analysis of the deposited data

How the results depend on the processing

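Alternatives fixed with the design left the 821 starts and 706 genes within 1.5 times, at 575 to 1168 starts and 503 to 1012 genes, apart from a score of at least 5 (440 starts and 386 genes) and the addition of predicted models (1768 starts). Leaving out each WT ATAC-seq liver gave 888 to 1168 starts and 766 to 1012 genes. The share with a summit in both JMJD1C-LKO livers, 8.64%, was 4.15% with a score of at least 5, 6.92% to 8.22% without each WT liver, and 13.0% to 58.4% without one of the JMJD1C-LKO livers. For H3K9me2 in both fasted livers, 71.7%, it was 59.8% within 500 bp, 25.5% from 1000 bp upstream to 100 bp downstream (where the window cuts off the downstream summits), 66.3% with a score of at least 5, 69.3% to 71.5% without each WT ATAC-seq liver and 71.8% to 96.6% without each fasted ChIP-seq liver. Shares of all genes were not counted for the other windows, so the 59.8% and 25.5% have no background here. In both refed livers the members' share stayed at 0 to 0.141%, and rested on refed 1, being 84.4% without that liver and 0.85% without refed 2. Members higher in RNA-seq, 59, numbered 48 in DESeq2, 54 without a filter, 59 with RLE factors and 12 to 74 without 1 library, and members lower, 111, numbered 94, 111, 111 and 23 to 156. Dropping WT 1, WT 2 or JMJD1C-LKO 2 cut the higher count by over 1.5 times and dropping either WT library the lower count. In DESeq2, 7.34% of tested members were higher, against 11% of all genes, and 14.4% lower, against 10.1%. Without a filter, 8.26% were higher, against 12.8% of all genes, and 17.0% lower, against 12.1%. RLE factors gave 9.2% higher, against 14.5% of all genes, and 17.3% lower, against 13.2%. With the replicate number as a block, the paired fit gave 60 higher members (9.36%, against 15.6% of all genes). In that fit 19.3% of tested members were lower, against 14.1% of all genes. The replicate numbers did not pair the libraries (correlation of deviations −0.00453). The median level, 9.85 TPM, was 18.5 on the CPM scale, another unit, and 9.58 to 10.3 without 1 WT library.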
